A study of Sus scrofa with 2 samples.

Results

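Endothelial nuclei of the pig pancreas in which neither SLCO2A1 nor TLL1 was detected are described here, as measured by single-nucleus RNA sequencing (snRNA-seq), which counts unique molecular identifiers (UMIs, tags that mark each captured RNA molecule) for each gene in each nucleus. A nucleus was taken as endothelial when 8 genes of the vessel lining (FLT1, PTPRB, FGD5, EGFL7, EMCN, TEK, ERG and KDR) summed to at least 3 UMIs and to at least 0.2% of its UMIs, among barcodes with 270 to 3700 genes and fewer than 13000 UMIs. Those with 0 UMIs of SLCO2A1, the prostaglandin transporter, and of TLL1, a tolloid-like protease, are called negative nuclei below, and those with at least 1 UMI of either gene are called positive nuclei. There were 221 negative nuclei (77 from WT and 144 from PIGinH11), out of 755 endothelial nuclei (290 and 465), 28097 nuclei within the limits (13189 and 14908) and 28583 barcodes in the files (13619 and 14964). The nuclei were thus chosen by the measured levels of these 10 genes, so those levels are not results, and the negative and positive nuclei were split from each other by the values compared.

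The study set a genetically modified pig beside a wild-type pig to ask what changes in the pancreas at the cellular level. The WT sample came from a wild-type Bama pig, and the PIGinH11 sample from a Bama pig with GIPRdn (a dominant-negative incretin receptor), hIAPP (human islet amyloid polypeptide) and PNPLA3 I148M knocked in at the H11 locus, driven by promoters specific to beta cells or to the liver as the study describes them. Both pigs were 18 months old, had a control diet until 6 months and then a high-fat and high-sucrose diet for 12 months (37% sucrose, 53% control diet and 10% lard), and gave 1 piece from the body of the pancreas. With 1 pig and 1 library per group, genotype, animal and library preparation cannot be told apart, no test between the groups is possible, and all intervals below are 95% intervals that cover counting error only.

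Endothelial cells line all vessels, and those of capillaries, arteries and veins keep distinct programs. Capillary endothelium is the site of exchange: GPIHBP1 holds lipoprotein lipase on its surface, CD36 and the fatty acid binding proteins move lipid across the cell, and PPARG is a transcription factor of this program. Venular endothelium admits leukocytes and is known for the chemokine receptor ACKR1, P-selectin (SELP) and the transcription factor NR2F2. In the pancreas, capillaries supply both the acini and the islets.

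How many nuclei were negative depended on depth, which differed between the libraries. The WT library held 55784067 UMIs and the PIGinH11 library 26228811. Negative nuclei had a median of 2969 UMIs and 1583 genes in WT and of 1377 UMIs and 924.5 genes in PIGinH11, against 4101 and 2518 UMIs in positive nuclei and 3079 and 1161 UMIs in non-endothelial nuclei. In WT, 62.5% of the endothelial nuclei with under 1000 UMIs were negative (5 of 8), 58.3% of those with 1000 to under 2000 (21 of 36), 23.8% of those with 2000 to under 4000 (25 of 105) and 18.4% of those with 4000 or more (26 of 141). The PIGinH11 shares in the same classes were 51.9% (42 of 81), 35.9% (52 of 145), 29.7% (43 of 145) and 7.45% (7 of 94). In both libraries, then, shallow endothelial nuclei were negative more often than deep ones. Thinned to 500 UMIs each, 65.9% of all WT and 58.9% of all PIGinH11 endothelial nuclei had neither gene, so absence of both transcripts from a nucleus does not show that the cell lacks them.

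Of the nuclei within the limits, 0.584% were negative in WT (exact binomial interval 0.461 to 0.729) and 0.966% in PIGinH11 (0.815 to 1.14). Of the endothelial nuclei, 26.6% were negative in WT (21.6 to 32.0) and 31.0% in PIGinH11 (26.8 to 35.4), and the intervals overlapped. Among endothelial nuclei with at least 2000 UMIs the shares were 20.7% (51 of 246, 15.8 to 26.3) and 20.9% (50 of 239, 15.9 to 26.6). These pool classes that lay in opposite order, with the WT share below the PIGinH11 share at 2000 to under 4000 UMIs (16.0 to 33.1 and 22.4 to 37.8) and above it at 4000 or more (12.4 to 25.8 and 3.05 to 14.7). The intervals overlapped in both classes, and no difference between the libraries is read from the pooled shares.

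**Figure D1:**
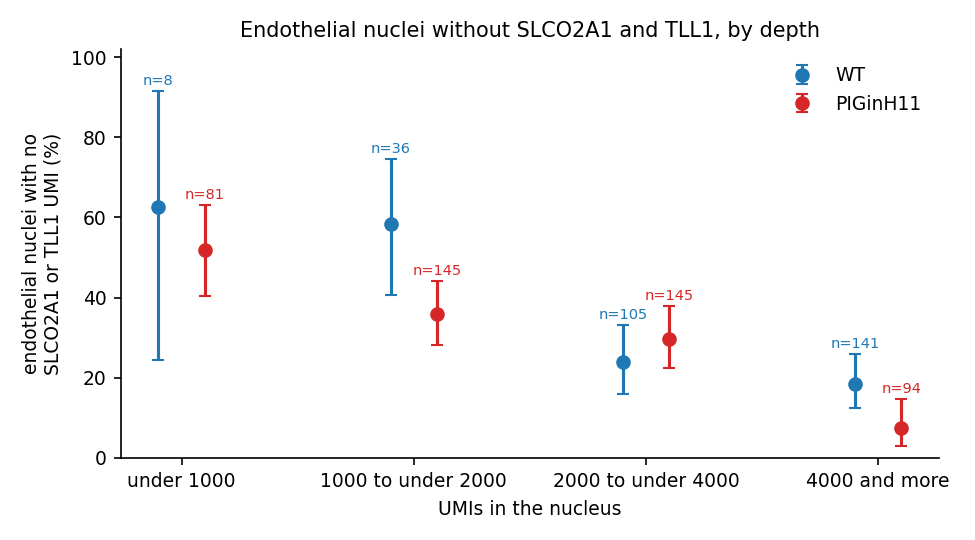
Share of endothelial nuclei with 0 UMIs of SLCO2A1 and TLL1 (%, y axis) in 4 classes of UMIs per nucleus (x axis) for WT and PIGinH11, with exact binomial 95% intervals and the number of nuclei printed at each point. The share runs from 62.5% to 18.4% in WT and from 51.9% to 7.45% in PIGinH11 from the shallowest to the deepest class.

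The label was checked against 29 measured endothelial markers that the rule did not use, among them VWF, PECAM1, CDH5 and PLVAP. At least 2 UMIs of these markers were present in 76 of 77 WT and 135 of 144 PIGinH11 negative nuclei. Their summed level was 11217 CPM in WT (CPM, the UMI sums of a population of nuclei in a library scaled to 1000000) and 10351 in PIGinH11, against 12121 and 11539 CPM in positive nuclei and 222 and 372 CPM in non-endothelial nuclei. Nuclei just inside it, with 3 UMIs of the 8 genes, were at 16775 CPM in WT (1 nucleus) and 6187 CPM in PIGinH11 (25 nuclei). Those just outside, with 2 UMIs, were at 1862 CPM (7 nuclei) and 2632 CPM (55 nuclei), and those with 0 UMIs at 213 and 327 CPM. Of the 5 markers named for these nuclei, FLT1 and EMCN belong to the rule. The other 3 were far above non-endothelial nuclei in both libraries: LRRC3B at 958 CPM in WT and 646 in PIGinH11 against 1.56 and 5.77, the membrane repair protein DYSF at 890 and 681 against 4.81 and 11.7, and the adhesion receptor ADGRF5 at 1628 and 1226 against 5.56 and 18.3.

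Against non-endothelial nuclei of the same library, 26.0% of 2394 genes were at least 2-fold higher in the negative nuclei of both libraries (623 genes) and 6.27% at least 2-fold lower (150). These genes had at least 20 UMIs in the negative nuclei of each library, a minimum that removes genes low in negative nuclei, so nothing is read from the balance of the counts. Ranked among them by the smaller of the libraries' ratios, GPIHBP1 stood first. It lies at chr4:1253401-1256921 of the Sscrofa11.1 assembly by its RefSeq annotation, and reached 323 CPM (exact Poisson interval 257 to 402, 81 UMIs in 33 nuclei) in WT and 375 CPM (304 to 458, 97 UMIs in 53 nuclei) in PIGinH11, 646-fold and 186-fold above the non-endothelial level.

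Among the 20 highest by this ranking, several encode junction and guidance proteins of the vessel wall. CLDN5, the tight junction claudin of endothelium, was at 108 CPM in WT and 131 in PIGinH11 (log2 over non-endothelial nuclei 6.81 and 6.64). The guidance receptor ROBO4 was at 331 and 491 CPM (8.40 and 6.73), and the gap junction protein GJA1 at 83.8 and 143 CPM (6.89 and 6.03). Receptors were also present. S1PR1, the receptor for sphingosine 1-phosphate, was at 172 and 155 CPM (7.65 and 6.04), and the adhesion receptor ADGRL4 at 1081 and 905 CPM (8.83 and 6.34). VE-cadherin (CDH5), the adherens junction protein of endothelium and not among these 20, was at 132 CPM in WT and 143 in PIGinH11 (7.23 and 5.78). Each of these ratios was larger in WT than in PIGinH11, and non-endothelial nuclei held more CPM of each of these genes in the PIGinH11 library.

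The named genes with the most UMIs in negative nuclei were LDB2, a cofactor of LIM-domain transcription factors (5698 CPM in WT and 5613 in PIGinH11), ARL15, PTPRM, PLCB1, MAGI1, MECOM, CCSER1, ZBTB20 and TCF4, together with the trypsinogen gene PRSS2. PRSS2 is a product of acinar cells and stood at 18587 CPM in WT (4658 UMIs, in 77 of 77 nuclei) and at 2035 CPM in PIGinH11 (526 UMIs, in 124 of 144 nuclei). Non-endothelial nuclei held 39396 and 5401 CPM of it. Reads of PRSS2 may be shared with near-identical trypsinogen copies, so its level is uncertain.

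Markers of other cell types were therefore read in the same nuclei before any comparison. The 16 measured digestive enzyme genes summed to 35825 CPM in WT and 13539 CPM in PIGinH11 negative nuclei, against 37434 and 9901 CPM in positive nuclei and 87345 and 49813 CPM in non-endothelial nuclei. Every negative nucleus held at least 3 UMIs of them, as did 99.9% or more of the non-endothelial nuclei. Ductal markers, of which the bicarbonate transporter SLC4A4 gave 58.4% of the UMIs in WT and 62.5% in PIGinH11, were at 1804 and 1218 CPM against 8973 and 5992 CPM in non-endothelial nuclei. At least 3 UMIs of ductal markers were present in 38 of 77 WT (49.4%) and 23 of 144 PIGinH11 (16.0%) negative nuclei. Acinar genes other than enzymes were at 2498 and 3915 CPM. Markers of mural cells were at 27.9 and 27.1 CPM (36.5 and 75.9 in non-endothelial nuclei), of macrophages at 67.8 and 54.2 CPM (36.5 and 73.1), of lymphocytes at 215 and 124 CPM (713 and 538), of Schwann cells at 144 and 112 CPM (318 and 366) and of adipocytes at 87.8 and 73.5 CPM (38.5 and 51.6). Those of erythroid and mesothelial cells gave 1 and 3 UMIs. Stellate and fibroblast markers were at 495 CPM in WT and 96.7 CPM in PIGinH11 (183 and 245 in non-endothelial nuclei), and 47 of the 124 WT UMIs came from 1 nucleus. Scrublet, which scores barcodes for holding 2 nuclei, marked 5 of 77 WT (6.49%) and 21 of 144 PIGinH11 (14.6%) negative nuclei, against 12.2% and 12.1% of all barcodes. The cutoff was placed at the expected doublet rate, so apart from ties the shares of all barcodes were set in advance. They are no measured doublet rate. The part of free RNA and of mixed barcodes in the levels below was not tested.

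Negative nuclei carried more of the capillary program than positive nuclei. The capillary list of 18 genes summed to 6049 CPM in WT (5749 to 6362) and 5419 CPM in PIGinH11 (5139 to 5711), against 3678 and 3443 CPM in positive nuclei, a log2 ratio of 0.72 and 0.65. Among nuclei with at least 2000 UMIs the ratio was 0.72 and 0.71. At least 2 UMIs of the list were present in 74 of 77 WT and 118 of 144 PIGinH11 negative nuclei. After thinning to 500 UMIs, this held for 64.9% and 56.9% of negative nuclei, 46.9% and 44.2% of positive nuclei and 1.92% and 3.08% of non-endothelial nuclei. Over all 4668 genes with enough counts, 0.278% were at least 2-fold higher in negative than in positive nuclei of both libraries (13 genes) and 1.09% at least 2-fold lower (51). The minimum was taken over negative and positive nuclei together. Positive nuclei held more UMIs, 941518 against 250604 in WT and 970208 against 258515 in PIGinH11. A gene low in negative nuclei could thus pass through positive nuclei alone, so nothing is read from the balance of 13 and 51. Of the 12 capillary genes with enough counts, 2 were 2-fold higher and 0 lower, with medians of 0.94 and 0.68 beside −0.02 and 0.00 over all genes. Since SLCO2A1 and TLL1, which mark part of the endothelium, defined the split, these counts describe it and support nothing further.

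Several genes of lipid uptake were higher in negative than in positive nuclei. CD36, the fatty acid translocase (chr9:99685748-99782296), was at 994 CPM in WT (874 to 1125, 249 UMIs in 30 nuclei) and 1226 CPM in PIGinH11 (1095 to 1369, 317 UMIs in 57 nuclei). Positive nuclei held 392 and 572 CPM of it, a log2 ratio of 1.34 and 1.10. It was uneven within the negative nuclei, with 47 of the WT UMIs in 1 nucleus. PPARG (chr13:68301566-68433951) was at 587 and 673 CPM against 231 and 237 CPM in positive nuclei (1.35 and 1.51). GPIHBP1 stood at 1.65 and 1.39 on the same log2 scale. FABP4, which carries fatty acids in the cytosol (chr4:55096400-55101209), was at 295 and 352 CPM against 122 and 176 CPM (1.27 and 1.00). The fatty acid list of 24 genes as a whole summed to 5287 CPM in WT and 5559 CPM in PIGinH11, against 3709 and 3958 CPM in positive nuclei (0.51 and 0.49), and 3 of its 14 genes with enough counts were at least 2-fold higher in both libraries, beside 0.278% of all genes. Other members of the list did not share the difference. The scavenger receptor SCARB1 was at 1468 and 1114 CPM against 1345 and 1064 CPM, and FABP5 at 399 and 457 CPM against 370 and 362 CPM. Lipoprotein lipase itself, LPL, was sparse in negative nuclei (4 and 8 UMIs), and CA4, a carbonic anhydrase of capillaries, gave 6 and 7 UMIs. Adipocyte markers in negative over positive nuclei had a log2 ratio of 1.41 in WT (0.56 to 2.25, 22 UMIs) and 0.80 in PIGinH11 (−0.069 to 1.62, 19 UMIs), and stellate and fibroblast markers stood at 2.49 in WT, with 47 of 124 UMIs in 1 nucleus, and 0.23 in PIGinH11 (−0.48 to 0.89). Their part in the lipid genes was not tested.

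Not every negative nucleus showed these transcripts. At least 1 UMI of CD36, FABP4, GPIHBP1 or PPARG was found in 55 of 77 WT (71.4%) and 99 of 144 PIGinH11 (68.8%) negative nuclei, in 71.4% and 63.2% of the deeper positive nuclei, and in 6.67% and 8.66% of non-endothelial nuclei, which should lack most of them. After thinning to 500 UMIs the shares in negative nuclei were 36.4% and 41.0%, in positive nuclei 34.3% and 35.2%, and in non-endothelial nuclei 1.39% and 4.15%. All 4 genes were present together in 10 WT and 13 PIGinH11 negative nuclei. Thus the summed level separated negative from positive nuclei more clearly than the share of nuclei with a UMI did.

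Other transcripts also stood higher in negative nuclei. PTGER2, the EP2 receptor for prostaglandin E2, was at 220 CPM in WT (55 UMIs in 15 nuclei, 16 of them in 1 nucleus) and 89.0 CPM in PIGinH11 (23 UMIs in 10 nuclei). Positive nuclei held 37.2 and 18.6 CPM, a log2 ratio of 2.56 (1.92 to 3.22) and 2.26 (1.31 to 3.24). ABLIM3, an actin-binding LIM protein, was at 160 and 244 CPM against 37.2 and 69.1 CPM (2.10 and 1.82). NID1, the basement membrane protein nidogen, was at 188 and 139 CPM against 69.0 and 69.1 CPM (1.44 and 1.01). PCED1B and ARL6IP1 were also among the 10 largest ratios, with 28 and 21 UMIs and 17 and 26 UMIs. AUTS2 and ROBO2 ranked there too, but 46 of the 183 WT and 44 of the 201 PIGinH11 UMIs of AUTS2, and 17 of the 30 WT UMIs of ROBO2, came from 1 nucleus each.

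Genes of venules were on the opposite side. The venous list, of which 13 genes beside SLCO2A1 and TLL1 were measured, summed to 970 CPM in WT (852 to 1100) and 1160 CPM in PIGinH11 (1033 to 1300) negative nuclei and to 1689 and 2146 CPM in positive nuclei, a log2 ratio of −0.80 and −0.89. In negative nuclei most of what remained was von Willebrand factor (VWF), a clotting protein found in several vessel beds, with 51.9% of the list's UMIs in WT and 65.7% in PIGinH11. Of the 8 genes with enough counts, 4 were at least 2-fold lower and 0 higher in both libraries, beside 1.09% and 0.278% of all genes. Venous genes low in negative nuclei could also pass the minimum through positive nuclei alone, so nothing is read from this balance. ACKR1 (chr4:91224089-91225610) gave 0 UMIs in the negative nuclei of both libraries, which allows up to 3 UMIs, or at least 4.88-fold and 8.17-fold lower than the 58.4 and 94.8 CPM of positive nuclei. SELP gave 0 and 2 UMIs against 96.7 and 41.2 CPM. IL1R1, the receptor for interleukin 1, was at 112 CPM in WT and 34.8 CPM in PIGinH11 against 468 and 529 CPM, a log2 ratio of −2.07 and −3.92. NR2F2 was at 16.0 and 11.6 CPM (4 and 3 UMIs) against 59.5 and 51.5 CPM.

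The lowest ratios included genes that the venous list did not hold. IL33, a nuclear cytokine released on injury (chr1:215899830-215941944), was at 75.8 CPM in WT (19 UMIs in 10 nuclei) and 104 CPM in PIGinH11 (27 UMIs in 16 nuclei). Positive nuclei held 413 and 604 CPM, so the log2 ratio was −2.45 (−3.19 to −1.78) and −2.53 (−3.15 to −1.98). The adhesion receptor ADGRG6 was at 35.9 and 7.74 CPM against 158 and 212 CPM. FGF2, a growth factor for endothelium, was at 23.9 and 30.9 CPM against 103 and 191 CPM. DOCK11, a guanine nucleotide exchange factor, gave 0 and 2 UMIs, the homeobox genes LHX6 and MEOX1 gave 3 and 1 and 2 and 2 UMIs, FAR2 gave 2 and 1, and CNTN3 8 and 17.

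**Figure D2:**
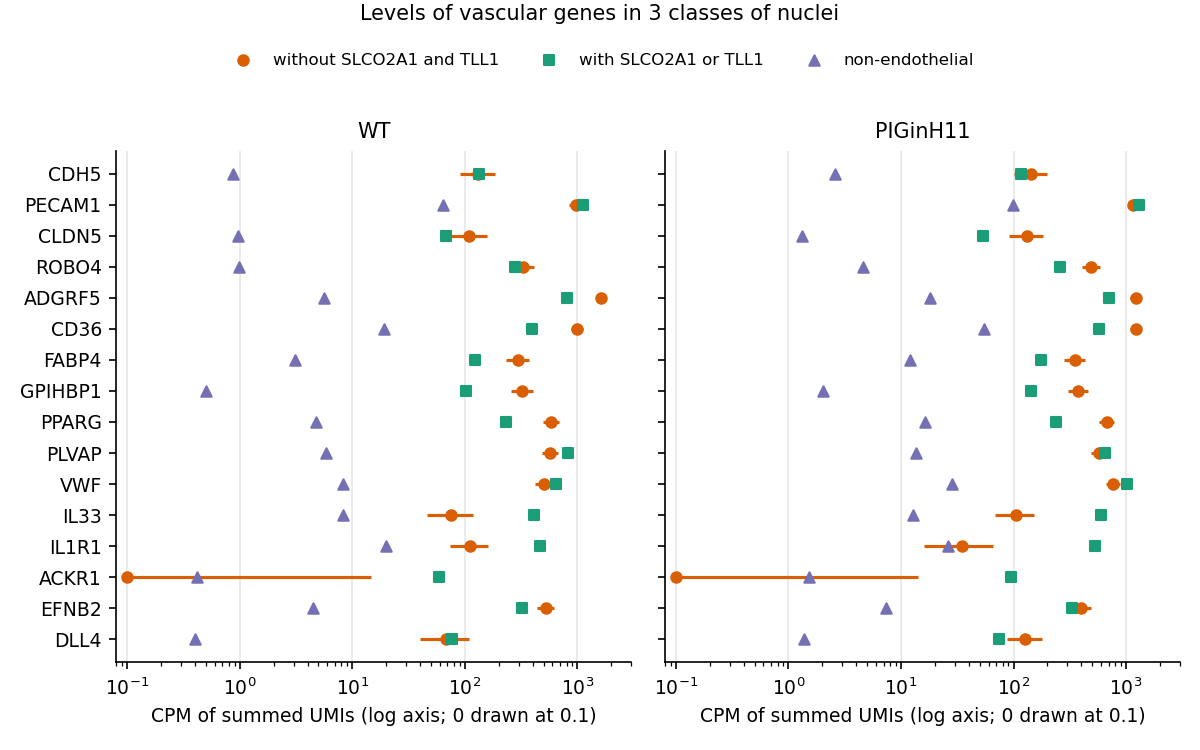
Summed level (CPM, log axis) of vascular genes in negative (circles, with exact Poisson 95% intervals), positive (squares) and non-endothelial nuclei (triangles) of WT and PIGinH11, with ACKR1 at 0 UMIs drawn at the left edge. CD36, PPARG and GPIHBP1 lie above and IL33 and IL1R1 below the positive nuclei in both libraries.

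**Figure D3:**
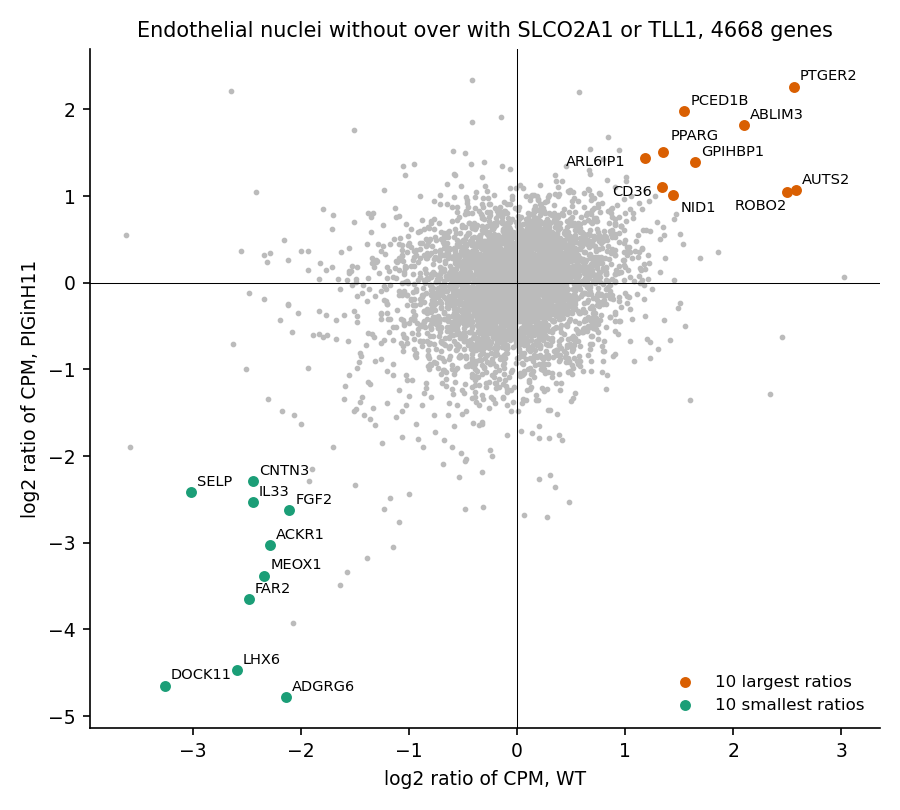
Log2 ratio of CPM in negative over positive nuclei for each gene with enough counts, WT on the x axis and PIGinH11 on the y axis, with the 10 largest and 10 smallest ratios in colour, lines at 0 and genes with 0 UMIs placed at the floor of 3 UMIs. Most of the 4668 genes lie near 0, with PTGER2 at 2.56 and 2.26 and IL33 at −2.45 and −2.53.

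The split at 0 UMIs was then set beside the full range of SLCO2A1 and TLL1. Endothelial nuclei with at least 2000 UMIs were placed in classes with 0, 1, 2 to 5 and 6 or more UMIs of the 2 genes, with 51, 37, 74 and 84 nuclei in WT and 50, 39, 66 and 84 in PIGinH11. This division was chosen after seeing the data. The capillary list was at 6053, 4226, 4843 and 2693 CPM in these WT classes and at 5607, 4446, 4468 and 2324 CPM in the PIGinH11 classes. The venous list was at 962, 959, 1033 and 2390 CPM in WT and at 1055, 1216, 1253 and 3143 CPM in PIGinH11. Nuclei with 1 to 5 UMIs thus had a venous level close to that of negative nuclei, and the class with 6 or more stood apart.

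Single genes showed where the classes parted. PPARG was at 605, 360, 329 and 110 CPM in WT and at 636, 302, 334 and 107 CPM in PIGinH11 from the class with 0 UMIs to that with 6 or more. GPIHBP1 was at 333, 198, 145 and 39.5 CPM in WT and at 331, 288, 190 and 46.8 CPM in PIGinH11. For both genes the negative nuclei were the highest class of either library, although the GPIHBP1 intervals of the classes with 0 and 1 UMI overlapped. CD36 was highest in negative nuclei too, at 1032 CPM in WT and 1310 CPM in PIGinH11, but its other classes were in no order (282, 569 and 303 CPM, and 432, 865 and 419 CPM). FABP4 was at 272, 70.5, 250 and 52.7 CPM in WT, where the intervals of the classes with 0 UMIs and with 2 to 5 overlapped, and at 407, 201, 172 and 159 CPM in PIGinH11. IL33 was at 75.1, 84.7, 234 and 643 CPM in WT and at 134, 166, 237 and 1079 CPM in PIGinH11. IL1R1 was at 113, 56.4, 130 and 836 CPM in WT and at 12.7, 86.3, 111 and 985 CPM in PIGinH11. ACKR1 was found almost wholly in the class with 6 or more, at 112 and 221 CPM.

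**Figure D4:**
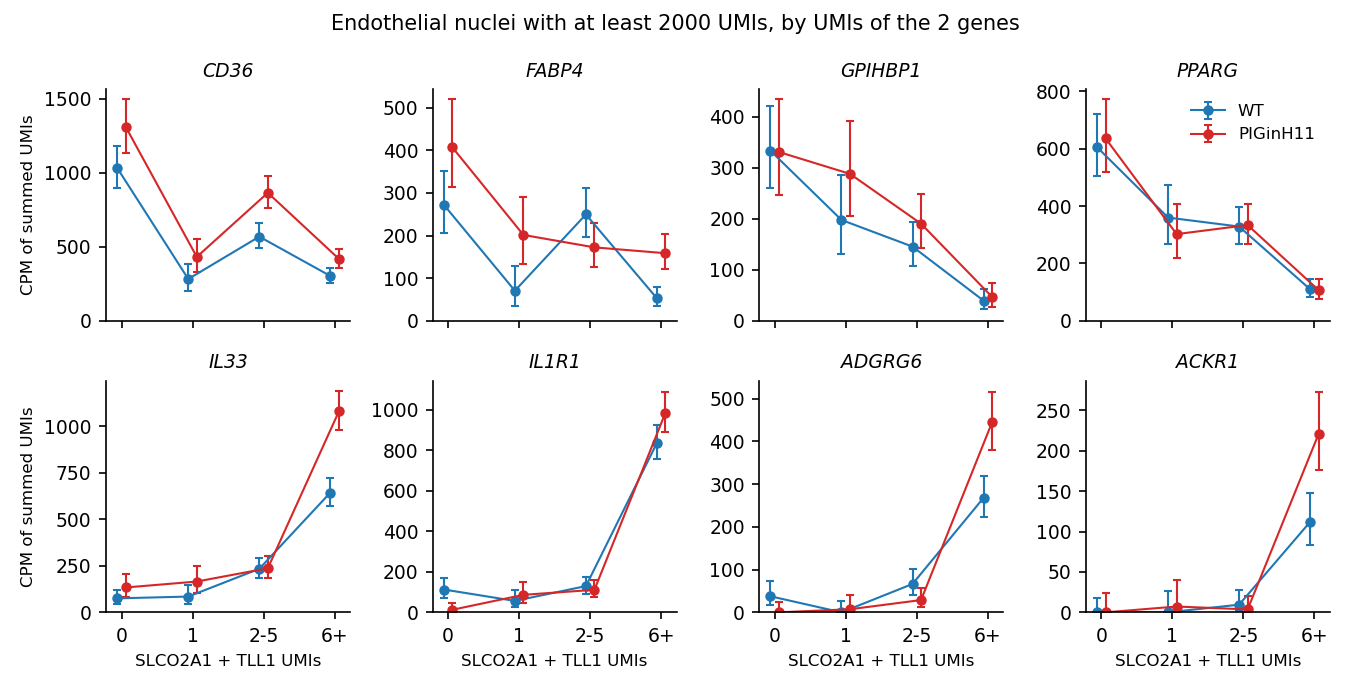
Summed level (CPM, y axis) of CD36, FABP4, GPIHBP1, PPARG, IL33, IL1R1, ADGRG6 and ACKR1 in endothelial nuclei with at least 2000 UMIs, by the number of SLCO2A1 and TLL1 UMIs (x axis), for WT and PIGinH11 with exact Poisson 95% intervals. PPARG lies at 605 and 636 CPM in negative nuclei and at 110 and 107 CPM in the class with 6 or more UMIs, where IL33 lies at 643 and 1079 CPM.

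Other vessel programs separated negative from positive nuclei less. The arterial list, of which ARL15 alone gave 45.7% and 45.3% of the UMIs, was at 10594 CPM in WT and 11373 CPM in PIGinH11, against 9178 and 9446 CPM in positive nuclei (0.21 and 0.27). It was also well detected outside the endothelium, at 2351 and 2305 CPM. The lymphatic list was at 196 and 228 CPM against 290 and 189 CPM in positive nuclei (log2 −0.57, −1.04 to −0.13, and 0.27, −0.17 to 0.71) and 131 and 140 CPM in non-endothelial nuclei. In PIGinH11 1 nucleus gave 25 of its 59 UMIs, among them 9 of the 12 UMIs of MMRN1, a marker of lymphatic endothelium. At least 2 UMIs of the capillary and arterial lists but not of the venous or lymphatic list were found in 26 WT and 52 PIGinH11 negative nuclei, and of the capillary, arterial and venous but not of the lymphatic list in 42 and 58. The lists overlap within nuclei, so no nucleus was assigned to a bed.

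Signalling and structural lists were set beside positive nuclei in the same way. Receptors and ligands of the VEGF family, read without FLT1 and KDR, were at 2035 CPM in WT and 1516 CPM in PIGinH11 against 1670 and 1404 CPM, and the coreceptor NRP1 gave 52.5% and 46.9% of the UMIs. The angiopoietin and TIE list without TEK was at 327 and 248 CPM against 212 and 180 CPM, a log2 ratio of 0.62 (0.23 to 1.00) and 0.46 (0.02 to 0.88), and VEGFA itself gave 2 and 5 UMIs. Notch genes were at 2490 and 2623 CPM against 2662 and 2509 CPM, with the ligand DLL4 at 67.8 and 128 CPM and the receptor NOTCH4 at 351 and 220 CPM in negative nuclei. Genes of BMP and TGF-beta signalling were at 4465 and 4456 CPM against 4501 and 4578 CPM, with the receptor BMPR2 at 886 and 994 CPM. Basement membrane and integrin genes were at 6109 and 6050 CPM against 5590 and 5746 CPM, among them COL4A2, a chain of type IV collagen, at 391 and 441 CPM. Transcription factors of endothelium were at 15159 and 15144 CPM against 14367 and 14963 CPM. Junction genes were at 8763 and 9384 CPM against 7512 and 8012 CPM. Genes of fenestrae, caveolae and transport were at 2901 and 2820 CPM against 3569 and 2864 CPM. PLVAP, the protein of fenestral diaphragms, was at 575 CPM in WT and 580 CPM in PIGinH11 against 826 and 656 CPM, and the caveola protein CAV1 at 251 and 337 CPM against 206 and 170 CPM. Leukocyte adhesion and inflammation genes were at 4330 and 3942 CPM against 4948 and 4426 CPM, and 4 of 19 with enough counts were at least 2-fold lower in both libraries, beside 1.09% of all genes. Here too genes low in negative nuclei could pass the minimum through positive nuclei alone, so nothing is read from this count.

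In PIGinH11 over WT, negative nuclei differed by a median of 0.02 on the log2 scale over 2786 genes, and positive nuclei by 0.05 over the same genes. At least 2-fold higher in PIGinH11 were 4.24% of the genes (118) and at least 2-fold lower 4.02% (112), or 8.26% in either direction (230). Without nuclei holding 3 or more UMIs of another cell type's markers, 139 genes were higher and 63 lower. Of the 118 higher genes, 70 were below the level of non-endothelial nuclei in both libraries (59.3%), and of the 112 lower genes 48 (42.9%), beside 28.0% of all 2786 genes.

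The largest ratios were mostly of genes that non-endothelial nuclei held at a higher level. CFAP299 gave 1 UMI in WT and 41 UMIs in 29 nuclei of PIGinH11, where non-endothelial nuclei held 205 and 866 CPM. PTPRN2, a phosphatase-like protein of secretory granules, was at 152 CPM in WT and 959 CPM in PIGinH11 (log2 2.66, 2.16 to 3.19, and 3.58 without nuclei holding other cell types' markers), with 985 and 3207 CPM in non-endothelial nuclei. The protein disulfide isomerase of acinar cells, PDIA2, was at 75.8 and 340 CPM (2.17), with 443 and 962 CPM outside the endothelium. NOVA1, a splicing factor, was different. It was at 75.8 CPM in WT (19 UMIs in 9 nuclei) and 406 CPM in PIGinH11 (105 UMIs in 36 nuclei), a log2 ratio of 2.42 (1.71 to 3.21), with 34.0 and 226 CPM in positive nuclei and 57.0 and 51.0 CPM in non-endothelial nuclei. LMO7 was at 43.9 and 236 CPM (2.43, and 1.32 after thinning to 500 UMIs), with 68.0 and 180 CPM in positive and 71.5 and 81.9 CPM in non-endothelial nuclei. TOX was at 16.0 and 275 CPM, but 20 of its 71 PIGinH11 UMIs came from 1 nucleus.

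The smallest ratios were led by genes that were also lower in the rest of the PIGinH11 library. HSP70.2, an inducible heat shock protein, was at 615 CPM in WT (154 UMIs in 47 nuclei) and 23.2 CPM in PIGinH11 (6 UMIs in 4 nuclei), a log2 ratio of −4.73 (−6.20 to −3.57), beside −3.24 in positive and −5.94 in non-endothelial nuclei. The metallothioneins MT1A and MT1X were at −2.32 and −2.17, beside −2.04 and −2.36 in non-endothelial nuclei. These 3 genes belong to families of near-identical copies, so their levels are uncertain. The secreted exocrine proteins PRSS2, CTRC, KLK1 and TFF2 were at −3.19, −2.15, −2.49 and −3.50, and the elastase gene CELA2A was at 1488 CPM in WT and 186 CPM in PIGinH11. TFF2 was at −2.39 after thinning to 500 UMIs, and KLK1 and MT1X were at −3.45 and −2.90 without the nuclei marked by Scrublet. The digestive enzyme list as a whole was at −1.40 in negative nuclei and −1.92 in positive nuclei, and 7 of 13 enzyme genes with enough counts were at least 2-fold lower and 2 higher. Acinar genes other than enzymes were on the opposite side, at 0.65 (0.50 to 0.79) beside 0.43 in positive nuclei, with 3 of 10 genes at least 2-fold higher and 0 lower. Of all genes, 4.02% were at least 2-fold lower and 4.24% higher. PRKG1, a kinase of contractile and stromal cells, was at −2.75, but 31 of its 65 WT UMIs came from 1 nucleus. It was at −0.13 without nuclei holding other cell types' markers. PRKG1 is itself among those markers, so that step removed nuclei by their PRKG1 UMIs and is no check.

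Genes enriched in endothelium were read separately, by a rule chosen after seeing the data (at least 4-fold above non-endothelial nuclei in both libraries). Of 375 such genes with a symbol, ribosomal and mitochondrial genes left out, 2.13% were at least 2-fold higher in PIGinH11 (8 genes) and 2.93% at least 2-fold lower (11), with a median log2 ratio of −0.08 in negative and −0.04 in positive nuclei. Over all genes these shares were 4.24% and 4.02%. A gene much lower in either library can fail the 4-fold rule and leave the set, so nothing is read from these counts. PTGIS, prostacyclin synthase (chr17:51153151-51200515), had the lowest ratio, with 140 CPM in WT (35 UMIs in 27 nuclei) and 34.8 CPM in PIGinH11 (9 UMIs in 8 nuclei). It was thus 4.01-fold lower in PIGinH11 (log2 interval −3.25 to −0.92), beside log2 ratios of −0.89 in positive nuclei and 1.15 in non-endothelial nuclei. With every nucleus thinned to 500 UMIs its log2 ratio was −0.17. Thinning left at most the 9 PIGinH11 UMIs, so nothing is read from that value. CALCRL (chr15:92233264-92332459) and RAMP2 encode the parts of the adrenomedullin receptor. CALCRL was at 794 CPM in WT (199 UMIs in 51 nuclei) and 356 CPM in PIGinH11 (92 UMIs in 52 nuclei), a log2 ratio of −1.16 (−1.53 to −0.79), beside −0.43 in positive nuclei, and at −1.05 after thinning. RAMP2 was at 116 CPM (29 UMIs) and 46.4 CPM (12 UMIs), −1.32 (−2.42 to −0.30), beside −0.86 in positive nuclei. It was at −1.99 without nuclei holding other cell types' markers. PTGER2 was at −1.30 (−2.57 without nuclei holding other cell types' markers), the scaffold protein SLC9A3R2 at −1.13, the apolipoprotein APOA1 at −1.24 and SSUH2 at −1.08, the last of which reversed to 0.82 without nuclei holding 3 or more UMIs of another cell type's markers. SLC9A3R2 and APOA1 were then at −0.83 and −0.97, under 2-fold. SYNPR was at −1.04, but 32 of its 32 WT UMIs came from 1 nucleus.

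On the higher side, the secreted glycoprotein stanniocalcin (STC1) was at 63.8 CPM in WT (16 UMIs in 9 nuclei) and 205 CPM in PIGinH11 (53 UMIs in 20 nuclei), a log2 ratio of 1.68 (0.85 to 2.59), beside 2.31 in positive nuclei. The transcription factor CREB5 was at 63.8 and 197 CPM (1.63, 0.79 to 2.54), beside 0.09 in positive nuclei, and reversed to −2.23 after thinning to 500 UMIs. Without nuclei holding other cell types' markers CREB5 was at 2.94. RGS3, a regulator of G protein signalling, was at 104 and 255 CPM (1.30, 0.62 to 2.01), beside −0.02. Thinning to 500 UMIs put RGS3 at 3.34. Before thinning CREB5 had 16 UMIs in WT and 51 in PIGinH11, and RGS3 26 and 66. The thinned values rest on a part of these, so nothing is read from them. AHNAK was at 1.24, ITIH5 at 1.20, DCLK2 at 1.19, CLEC2B at 1.16 and FGF12 at 1.10. Without nuclei holding other cell types' markers STC1 was at 0.97 and CLEC2B at 0.50, and after thinning to 500 UMIs AHNAK was at 0.51 and DCLK2 at 0.58, each under 2-fold. AHNAK moved up under other settings, to 2.78 without nuclei holding other cell types' markers and to 2.39 when the endothelial rule asked for 0.4% of UMIs. ITIH5 was at 2.10 after thinning. In CLEC2B, 22 of the 129 PIGinH11 UMIs came from 1 nucleus. None of the differences between the ratio in negative and in positive nuclei was tested.

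**Figure D5:**
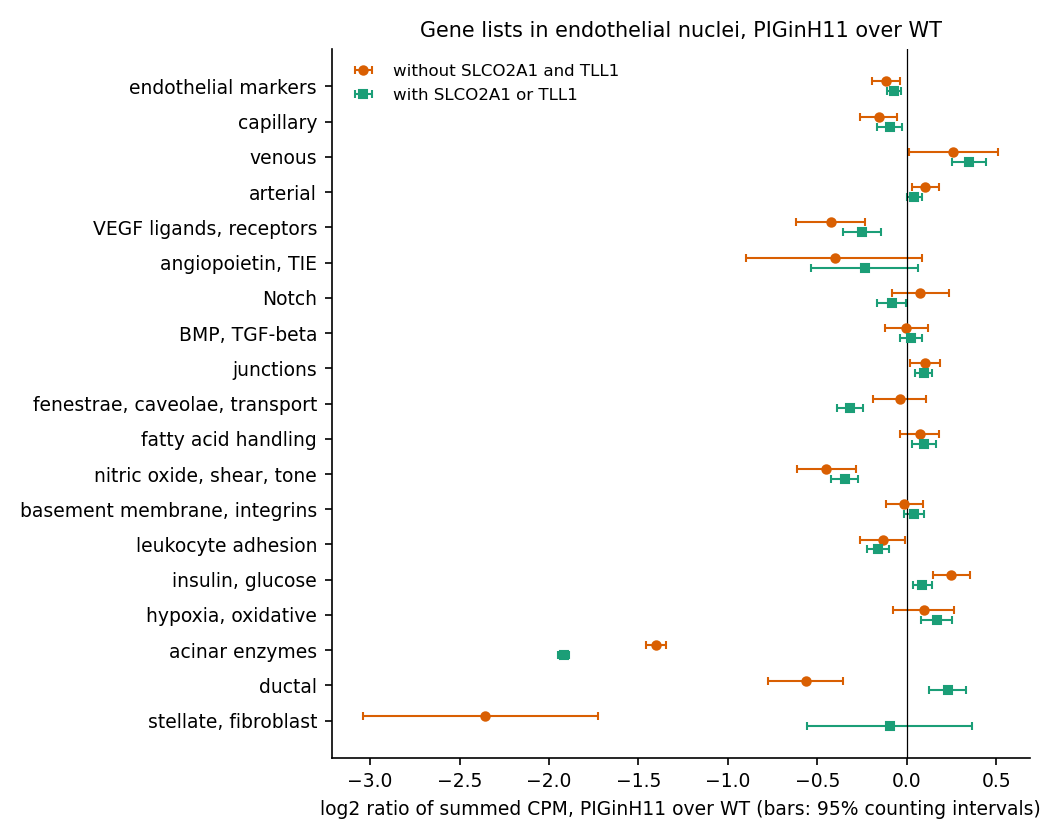
Log2 ratio of summed CPM in PIGinH11 over WT for each gene list in negative nuclei beside positive nuclei, both with 95% intervals that cover counting error only. Nitric oxide and tone genes lie at −0.45 and insulin and glucose genes at 0.25 in negative nuclei, and digestive enzymes at −1.40.

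By list, most endothelial programs lay within 0.2 of 0 on the log2 scale in PIGinH11 over WT. The independent endothelial markers were at −0.12 (−0.19 to −0.04), with 0 of 24 genes at least 2-fold higher and 2 lower, beside 4.24% and 4.02% of all genes. LRRC3B, DYSF and ADGRF5 together were at −0.45 (−0.59 to −0.30), beside −0.46 in positive nuclei, and at −0.71 after thinning to 500 UMIs. The capillary list was at −0.16 (−0.26 to −0.05), beside −0.10 in positive nuclei, with 0 of 10 genes higher and 1 lower, and at −0.35 after thinning to 500 UMIs. The fatty acid list was at 0.07 (−0.04 to 0.18), beside 0.09, with 1 of 10 genes higher and 0 lower, and at −0.18 without nuclei holding other cell types' markers. CD36 was at 0.30 (0.06 to 0.55), PPARG at 0.20 (−0.13 to 0.53) and GPIHBP1 at 0.22 (−0.23 to 0.66). These 3 genes showed no 2-fold difference between the pigs. FABP4 was at 0.25, but its sign turned to −0.55 without nuclei holding other cell types' markers and to −0.42 after thinning to 500 UMIs. The venous list was at 0.26 (0.01 to 0.51) and at 0.61 after thinning, and the gene with most of its UMIs, VWF, was at 0.60 (0.27 to 0.93). Junction genes were at 0.10, Notch genes at 0.07, hypoxia genes at 0.09, fenestra and caveola genes at −0.04, basement membrane genes at −0.01, BMP and TGF-beta genes and endothelial transcription factors at 0.00, and leukocyte adhesion genes at −0.14.

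A few lists lay further out. Genes of nitric oxide, shear response and vessel tone summed to 2813 CPM in WT (2609 to 3029) and 2058 CPM in PIGinH11 (1887 to 2240), a log2 ratio of −0.45 (−0.62 to −0.29), beside −0.35 in positive nuclei. Of its 10 genes with enough counts, 3 were at least 2-fold lower and 0 higher, beside 4.02% and 4.24% of all genes. The 3 were CALCRL, RAMP2 and PTGIS, the last of which was at −0.17 after thinning, on at most 9 PIGinH11 UMIs. The flow-induced transcription factors KLF2 and KLF4 were at 231 and 159 CPM and at 87.8 and 77.4 CPM. Nitric oxide synthase (NOS3) was at 51.9 and 61.9 CPM (13 and 16 UMIs). VEGF family genes were at −0.42 (−0.62 to −0.23), beside −0.25, and NRP1 at −0.59 (−0.87 to −0.31), beside −0.47 in positive nuclei. The angiopoietin and TIE list was at −0.40 (−0.90 to 0.09). Insulin and glucose genes summed to 5543 CPM in WT (5255 to 5842) and 6584 CPM in PIGinH11 (6275 to 6904), 0.25 (0.15 to 0.35), beside 0.09 in positive nuclei, with 1 of 13 genes higher and 0 lower. The list was at 0.24 in WT and 0.33 in PIGinH11 over non-endothelial nuclei. Once the non-endothelial level per nucleus was subtracted, it was at 3.19 in PIGinH11 over WT. Little of the list remained in WT after that step, so nothing is read from this value. The higher gene was INSR, the insulin receptor (chr2:71797209-71939923), at 303 CPM in WT (239 to 380, 76 UMIs in 38 nuclei) and 642 CPM in PIGinH11 (548 to 748, 166 UMIs in 56 nuclei). Its log2 ratio was 1.08 (0.68 to 1.49), beside 0.68 in positive and 0.11 in non-endothelial nuclei, and it was 1.28 after thinning and 1.37 without nuclei holding other cell types' markers. INSR had no value once the non-endothelial level was subtracted. Immediate early and heat shock genes were at −0.60 (−0.80 to −0.41), beside −0.54, and beside HSP70.2, the gene with the most WT UMIs, the list has DUSP1 at 539 and 584 CPM and FOS at 75.8 and 124 CPM, which were not lower.

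Proliferation genes rested on 1 nucleus. They gave 1 UMI in WT and 46 UMIs in PIGinH11, 34 of them in 1 nucleus, and without it 12 UMIs remained (47.0 CPM). Insulin (INS), a product of beta cells, gave 59 UMIs in WT and 18 in PIGinH11 negative nuclei, and the endocrine list as a whole was at 319 and 193 CPM against 642 and 613 CPM in non-endothelial nuclei.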

How the data were processed

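Nuclei from 1 piece of pancreas of each pig were sequenced with a 10x Genomics 3′ kit (v3.1 chemistry). Alignment to Sscrofa11.1, UMI counting and barcode calling were done by the authors with Cell Ranger, for which the methods and the submitters' processing notes give version 3.1.0 and the file headers 5.0.0. The deposited files hold these unnormalized UMI counts for 31908 genes, of which 15410 have no symbol in the files (841 were named from the RefSeq table of Sscrofa11.1). Seurat 3.1.1 served the authors' later steps, whose clusters were not used here.

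The files were read with Python 3.11.15, numpy 2.4.6, pandas 2.3.3 and scipy 1.17.1, and plots were made with matplotlib 3.10.9. Nuclei were chosen by the rule given at the start of the report. The methods print another UMI limit, and the limit of 13000 was used. Nuclei, gene lists and comparisons were chosen with earlier results of these data known. The libraries shared 60 barcode sequences and the negative nuclei of the libraries shared 0. The barcodes with the highest Scrublet scores (scanpy 1.11.5) were marked as doublets, up to the expected rate of 0.8% per 1000 barcodes and with ties included. They were kept in the values given and left out as an alternative. UMIs were summed over the nuclei of each library and expressed as CPM, since with 1 library per group nuclei are not replicates and no count model was fitted. Intervals are exact Poisson for levels, Clopper-Pearson for shares and conditional binomial for ratios. A count of 0 was compared at a floor of 3 UMIs, and no ratio was given when both sides were at or below it. The 2-fold counts used genes with at least 40 UMIs over the compared libraries or populations, or, against non-endothelial nuclei, at least 20 UMIs in the negative nuclei of each library. They left out the 10 genes of the rule. Genes named are members of the lists, the 12 largest and 12 smallest PIGinH11 over WT ratios, the 20 largest over non-endothelial nuclei, the 10 largest and 10 smallest over positive nuclei and the 10 with the most UMIs, without ribosomal and mitochondrial genes. The endothelium-enriched genes were added after seeing the data. The scripts were checked on simulated counts.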

Additional observations from a re-analysis of the deposited data

Results flagged for a closer look

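Lists were singled out where the ratio of negative over positive nuclei had opposite signs in the libraries and neither counting interval held 0, as was the case for 3 lists. The difference between the libraries was not tested, and other lists had opposite signs with an interval that held 0. Proliferation genes in negative over positive nuclei had a log2 ratio of −3.22 in WT, where 1 UMI was counted, and 1.28 in PIGinH11, where 34 of 46 UMIs came from 1 nucleus. Digestive enzymes were at −0.063 in WT and 0.45 in PIGinH11, but at 0.22 in WT after thinning to 500 UMIs, where the signs were no longer opposite. Among nuclei with at least 2000 UMIs they were at −0.29 and 0.25, with opposite signs. Ductal markers were at 0.30 in WT and −0.49 in PIGinH11, and at 1.45 in WT without the nuclei marked by Scrublet. In PIGinH11 over WT, ductal markers were at −0.57 in negative and 0.23 in positive nuclei, and this difference was not tested either. In negative nuclei the value was −0.029 after thinning, −0.094 by the mean of per-nucleus CPM and −1.01 without the nuclei marked by Scrublet. The ductal UMIs of negative nuclei were uneven, with 122 of 452 in 1 WT nucleus and 45 of 315 in 1 PIGinH11 nucleus.

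Among barcodes outside the gene and UMI limits, 24 in WT and 10 in PIGinH11 met the endothelial rule, of which 1 in each library had neither SLCO2A1 nor TLL1. They entered no comparison.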

How the results depend on the processing

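With 1 library per group, no replicate could be left out and no call had a test. No paired analysis was possible because each group had 1 library. The share of negative nuclei among PIGinH11 nuclei became 0.691% when the endothelial rule asked for at least 5 UMIs, 0.684% when it asked for 0.4% of UMIs, 1.16% among nuclei with at least 1000 UMIs and 0.785% without nuclei holding 3 or more UMIs of another cell type's markers. That last step left 33 of 77 WT and 117 of 144 PIGinH11 nuclei and a WT share of 0.250%. It gave 139 genes at least 2-fold higher in PIGinH11 in place of 118 and 63 lower in place of 112, and reversed SSUH2 (0.82). The stellate list turned to 0.24, but this step removes nuclei by the stellate markers themselves, so that value is no check. Thinning to 500 UMIs per nucleus left 29 genes higher and 18 lower, and reversed CREB5 (−2.23, on few UMIs). It set the negative over positive ratio at −1.26 for the venous list in WT, and at 0.18 in WT and 0.36 in PIGinH11 for the fatty acid list. For the arterial list in PIGinH11 the ratio was 0.19 (0.39 at 2000 UMIs or more). Proliferation genes had 0 UMIs in WT negative nuclei after thinning. Their negative over positive ratio of 0.053 there is an upper bound set by the floor of 3 UMIs, so no reversal was measured. Subtracting the non-endothelial level gave 180 genes higher and 121 lower, but only 1281 of 2794 genes had a value in this setting. A minimum of 100 UMIs gave 29 genes higher and 27 lower, and a minimum of 10 UMIs gave 791 and 657. Without the nuclei marked by Scrublet (72 and 123 left), 97 genes were higher and 111 lower in PIGinH11, PTGIS was at −1.92, INSR at 1.08, and the capillary list in negative over positive nuclei at 0.70 and 0.71. The causes of these changes were not tested. Other scalings moved the median of all genes by −0.02 and −0.04. Of the summary values under these alternatives, 18 moved and 44 did not. Of those for single genes and lists, 134 moved, 880 did not and 4 were marked as reversed, among them the stellate list and the proliferation bound.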
